A study of Mus musculus with 6 samples.

Results

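The genes described here are 9 genes of vitamin A handling in mouse liver: Lrat, Rbp4, Retsat, Adh4, Dhrs3, Aldh1a1, Cyp26a1, Cyp26b1 and Rarb. They were taken by name from the array annotation, using each probe set that carries exactly 1 gene symbol, which gave 11 probe sets for the 9 genes of 12705 genes tested. For Lrat and Retsat, which have 2 probe sets each, the one with the higher mean over the 6 arrays stands for the gene and the other is given beside it. The genes were chosen by their role in this path with the log2 differences between Tg and non-Tg livers already in view, above all those of Cyp26a1 and Lrat. These differences therefore describe these mice and lend no independent support to one another.

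Liver RNA was measured on Affymetrix mouse genome arrays, 1 array per mouse, in 3 Retnla transgenic mice (Tg 5, Tg 6 and Tg 7) and 3 non-transgenic mice (non-Tg 1, non-Tg 2 and non-Tg 3). The Retnla product, resistin-like molecule alpha, is secreted and best known from macrophages. All 6 were male, of strain background C57BL6/J, aged 3 months, and had been moved at 8 weeks of age to a high-fat diet with 21% fat and 0.15% cholesterol, on which they stayed for 4 weeks. No animals on a standard diet were compared, so every value below is from livers under this diet. Which promoter drives the transgene, and from how many founder lines the mice came, is stated in none of the sources used here. The comparison asks which transcripts differ with the transgene.

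Liver is the body's main store of vitamin A. Retinol arrives from the diet, is esterified for storage in stellate cells by Lrat, and leaves hepatocytes bound to Rbp4. Oxidation makes retinal and then retinoic acid, which binds the retinoic acid receptors, and enzymes of the Cyp26 family hydroxylate retinoic acid for disposal. Cyp26a1 and Rarb are textbook targets of retinoic acid itself, through a response element close to the start of transcription.

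That element is shown because it is the feature shared by 2 of the 9 genes in their promoter sequence. A direct repeat of 2 half-sites with 5 bases between them, the spacing classically bound by retinoic acid receptors, was searched on both strands in RefSeq promoter windows (assembly GRCm38.p6) of 300 bases each. A half-site was AGGTCA, with G also allowed as the first base and T as the third. All 9 genes matched a window by symbol, 13 windows in all, and the repeat was found in Cyp26a1 and Rarb. Both are printed 5′ to 3′ on the strand of the gene, with the repeat in capitals.
Cyp26a1, chr19:37697770-37697799, plus strand: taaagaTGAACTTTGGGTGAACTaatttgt
Rarb, chr14:16575506-16575535, minus strand: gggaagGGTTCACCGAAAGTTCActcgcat
In Cyp26a1 the repeat lies on the opposite strand, with AGTTCA for both half-sites, and ends 15 bases before the start site in the table. RefSeq's span for the gene begins further upstream, so the repeat lies inside the annotated gene. In Rarb it lies on the strand of the gene, with GGTTCA as the upstream and AGTTCA as the downstream half-site, and ends 36 bases before a start site that is internal to the longer gene. Of 32851 windows, 32 held such a repeat, or 0.0974%. Repeats of the same half-sites with 1 base between them were in 0.222% of windows and those with 2 bases in 0.268%, and none of these was in a window of the 9 genes. One half-site can be part of more than one kind of repeat. A match describes the letters in a window and does not show that a receptor is bound there.

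Array values are log2 signals, so a difference of 1 is a 2-fold difference. The deposited arrays had been scaled to a common mean, their median log2 signal ran from 6.49 to 6.74, and precision is limited by how few arrays there are. By bioC, a bacterial control transcript added before hybridisation, the arrays formed 2 sets: non-Tg 1, Tg 5 and Tg 6 had means of 9.83 to 9.94, and non-Tg 2, non-Tg 3 and Tg 7 had 11.2 to 11.4. No label names these sets, and differences within them are given below. Each such difference rests on 1 mouse on a side, non-Tg 1 in the lower and Tg 7 in the higher set. The labels were checked on Retnla, at 15.91 to 16.04 in Tg and 6.03 to 7.41 in non-Tg livers. Liver markers were bright in both groups: the 12 hepatocyte genes with a value summed to linear signals of 632651 to 653511 in non-Tg and 645795 to 691236 in Tg livers.

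The mean of each of the 9 genes was lower in Tg than in non-Tg livers, as it was for 47.9% of all genes. The median of the 9 log2 differences was -0.43, against 0.012 over all genes tested. In limma's fit across all genes, 0 of the 9 passed at an adjusted p of 0.05, where 2 of 12705 genes passed, or 0.0157%, and 0 of those were lower. The adjusted p of the 9 ran from 0.0610 to 0.970, and 5 of them had an unadjusted p under 0.05, as did 6.05% of all genes (3.12% with Tg lower). The 3 Tg values lay entirely below the 3 non-Tg values for 4 of the 9, Cyp26a1, Lrat, Adh4 and Dhrs3. Among all genes the groups did not overlap in 11.7%, with Tg lower in 5.64% and higher in 6.04%. Nothing is read from these counts, since the genes were chosen with this contrast in view. For a single gene, an exact permutation test, 2-sided, has 20 ways to assign the mice and so cannot give a p below 0.1. The 4 genes without overlap had that value.

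**Figure D1:**
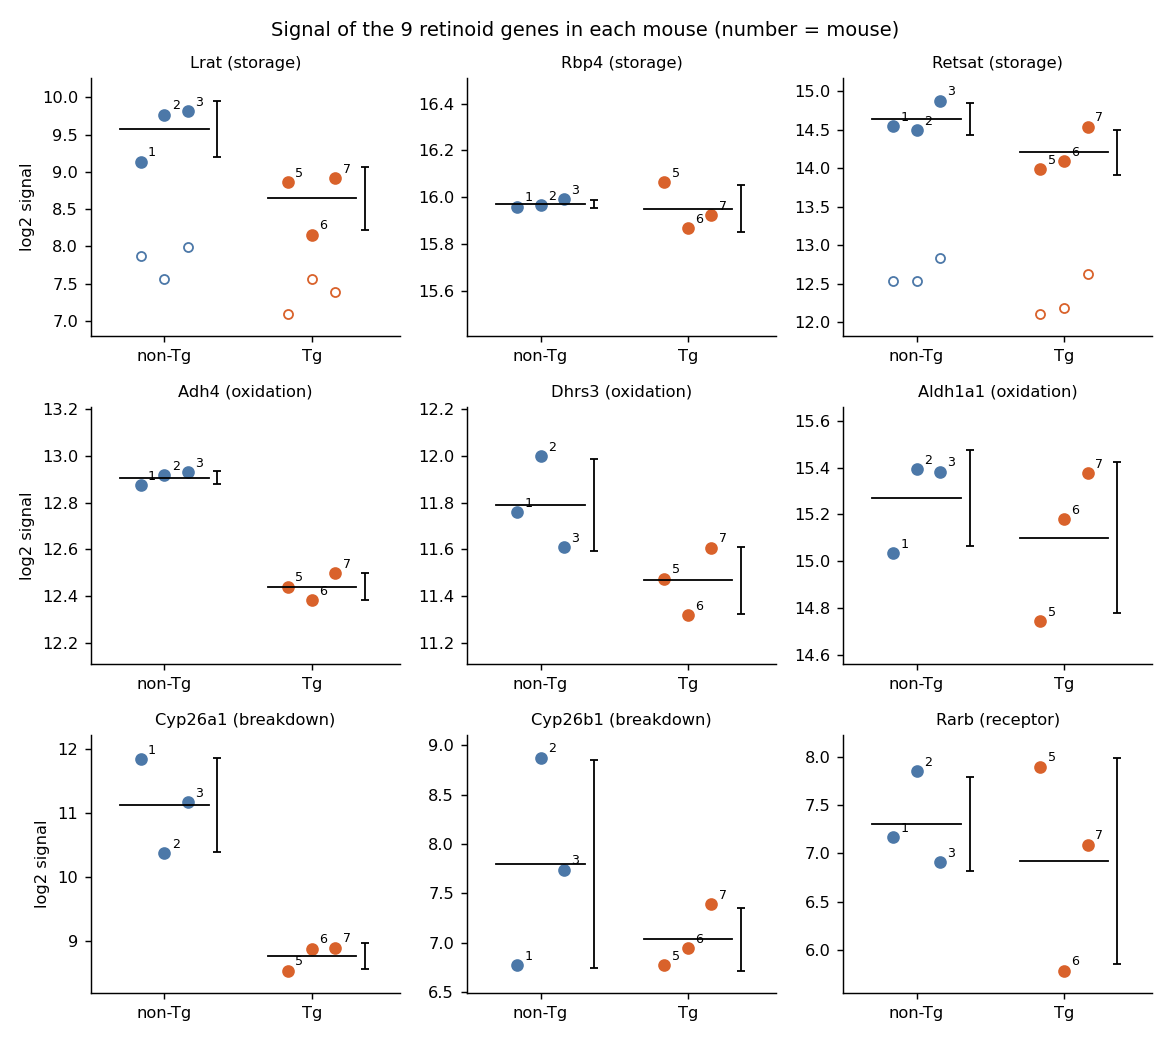
Log2 signal of the 9 genes in each mouse, with mouse numbers beside the points. Filled points are the probe set that stands for the gene, open points the second probe set of Lrat and Retsat, lines the group means and bars 1 SD (n = 3). For Cyp26a1 the 3 Tg points lie between 8.55 and 8.91 and the 3 non-Tg points between 10.4 and 11.8, while for Rbp4 all 6 lie between 15.9 and 16.1.

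Storage genes came first in the path and differed in size. Lrat, which joins a fatty acid to retinol and so makes the stored ester, had log2 signals of 9.14, 9.77 and 9.82 in non-Tg 1, 2 and 3 and of 8.86, 8.16 and 8.92 in Tg 5, 6 and 7. All Tg livers were lower, Tg 6 the lowest of them, and non-Tg 1 was the lowest of its group, 0.22 above the highest Tg value. The Lrat means were 9.58 ± 0.38 and 8.64 ± 0.42 (SD, n = 3 each). The log2 difference was -0.93 ± 0.26 (SE), or 1.91-fold lower in Tg livers with a 95% interval of 1.28 to 2.85 (limma adjusted p = 0.735). The second Lrat probe set, dimmer at means of 7.81 and 7.35, gave -0.46 ± 0.29 (SE, from a fit over all probe sets), and its groups touched, with non-Tg 2 and Tg 6 both at 7.56.

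Within the lower and higher bioC sets Lrat differed by -0.63 and -0.88. Left out 1 mouse at a time, it ran from -1.15 without non-Tg 1 to -0.69 without Tg 6. In liver, Lrat is a gene of stellate cells, the vitamin A storing cells beside the sinusoids, and other stellate genes were read beside it. Of 26 stellate markers tested, 18 were lower and 8 higher in Tg livers, with a median log2 difference of -0.25, and 0 passed in limma. At an unadjusted p under 0.05 in limma 2 were higher and 3 lower, and with no overlap 1 was higher and 3 lower. Among all genes 47.9% were lower, 6.05% had such a p (3.12% with Tg lower) and 11.7% had no overlap (5.64% with Tg lower). The stellate median was -0.13 without non-Tg 2, which had the highest summed signal of the list, and -0.15 without Tg 6. Within the lower and higher bioC sets it was -0.044 and -0.22. The matrix glycoprotein gene Reln differed by -0.52 ± 0.17 (SE) with no overlap, and Rgs5, a gene of mural cells, by 0.81 ± 0.24 (SE). The 27 stellate markers with a probe set had summed linear signals of 26989 to 34513 in non-Tg and 24415 to 29382 in Tg livers. Tg 6 had the lowest sum. By the probe set that stands for Lrat, Tg 6 was the lowest liver too, but by the second it was the highest Tg liver, at 7.56. The dimmest of the 27 markers had a mean log2 signal of 5.52, just under the 5.63 required for a test. The part of stellate markers in the Lrat difference was not tested, and in a piece of tissue fewer cells of a type and less RNA per cell cannot be told apart.

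Rbp4, the secreted carrier that takes retinol from hepatocytes into blood, was among the brightest probe sets on the arrays, with a mean above 99.9% of all others. Its signals were 15.96, 15.97 and 15.99 in non-Tg and 16.07, 15.87 and 15.92 in Tg livers, and the groups overlapped. The log2 difference was -0.021 ± 0.073 (SE; limma adjusted p = 0.970), with a 95% interval from -0.18 to 0.14. The interval leaves out a difference of 2-fold in either direction, as far as the log2 signal is linear at this brightness, which was not tested.

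Retsat, a reductase that saturates a double bond of retinol, had signals of 14.55, 14.50 and 14.88 in non-Tg and 13.99, 14.09 and 14.54 in Tg livers. Tg 7 reached the non-Tg range, and Tg 5 and Tg 6 lay below it. Retsat differed by -0.43 ± 0.15 on the log2 scale (SE; limma adjusted p = 0.782). The second Retsat probe set gave -0.33 ± 0.15 (SE) with the same overlap by Tg 7. Within the lower bioC set Retsat differed by -0.51 and within the higher by -0.15, and a fit with the set as a block gave -0.33.

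Of the oxidation genes, Adh4 had the least spread within its groups. Adh4, an alcohol dehydrogenase that turns retinol into retinal, was at 12.88, 12.92 and 12.93 in non-Tg and at 12.44, 12.38 and 12.50 in Tg livers. The groups were separated by 0.38, while the values inside a group differed by no more than 0.12. The means were 12.907 ± 0.028 and 12.440 ± 0.058 (SD, n = 3 each), and the log2 difference was -0.47 ± 0.089 (SE), or 1.38-fold lower in Tg livers with a 95% interval of 1.20 to 1.59 (limma adjusted p = 0.378). It was -0.46 and -0.42 within the bioC sets and between -0.50 and -0.44 with any 1 mouse left out. Adh5, the neighbour of Adh4 on chromosome 3, differed by -0.16 ± 0.084 (SE) with overlapping groups.

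Dhrs3 works in the opposite sense and reduces retinal back to retinol. Its signals were 11.76, 12.00 and 11.61 in non-Tg and 11.47, 11.32 and 11.61 in Tg livers. The groups did not overlap, but non-Tg 3 and Tg 7 were only 0.0010 apart. The log2 difference was -0.32 ± 0.13 (SE; limma adjusted p = 0.807), and without non-Tg 2, the highest liver, it was -0.22. Aldh1a1, which oxidises retinal to retinoic acid, was at 15.04, 15.39 and 15.38 in non-Tg and 14.74, 15.18 and 15.38 in Tg livers. The ranges overlapped widely, and Tg 5 was the lowest of the 6. Aldh1a1 differed by -0.17 ± 0.16 on the log2 scale (SE; limma adjusted p = 0.863), and without Tg 5 the difference was 0.0071. Aldh1a7, the near-identical neighbour of Aldh1a1 whose transcript a probe set may share, differed by -0.071 ± 0.14 (SE).

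Breakdown held the gene with the largest difference of the 9. Cyp26a1, the main retinoic acid hydroxylase of adult liver, had log2 signals of 11.85, 10.38 and 11.18 in non-Tg and of 8.55, 8.89 and 8.91 in Tg livers. The lowest non-Tg liver was 1.47 above the highest Tg liver, and the non-Tg livers were more spread than the Tg livers. The means were 11.13 ± 0.74 and 8.78 ± 0.20 (SD, n = 3 each). The log2 difference was -2.35 ± 0.31 (SE), or 5.11-fold lower in Tg livers with a 95% interval of 3.15 to 8.28 (limma adjusted p = 0.0610). Only Gm10804 and Cyp2b9 had a lower log2 difference among the 12705 genes.

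The Cyp26a1 difference did not pass as fitted, and some settings moved it across the threshold. Over 18 alternatives limma's adjusted p ran from 0.0105 to 0.715, and it passed in 4 of them: with 64 added before the log, with each array centred on its median, with the probe set of largest variance, and without non-Tg 2, the non-Tg liver with the least Cyp26a1. Cyp26a1 has 1 probe set, so with the probe set of largest variance its difference stayed at -2.35, and only limma's moderation and adjustment over all genes changed. The highest value, 0.715, came from limma's moderation with no intensity trend. The size ran from -2.73 without non-Tg 2 to -2.00 without non-Tg 1, and it was -3.13 and -1.87 within the lower and higher bioC sets.

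Cyp26b1 carries out the same reaction and is the second Cyp26 enzyme with a value here. It was dim, with signals of 6.77, 8.88 and 7.74 in non-Tg and 6.77, 6.94 and 7.39 in Tg livers. The 3 non-Tg livers spanned the whole Tg range, and non-Tg 2, lowest of its group for Cyp26a1, was highest for Cyp26b1. The log2 difference was -0.76 ± 0.48 (SE), with a 95% interval from -1.83 to 0.31 (limma adjusted p = 0.826). Without non-Tg 2 it was -0.22, and within the bioC sets it was 0.084 and -0.92. The difference was smaller than the spread of the non-Tg livers, whose SD was 1.05.

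Rarb, the retinoic acid receptor beta, was dim as well. Its signals were 7.16, 7.85 and 6.91 in non-Tg and 7.90, 5.79 and 7.09 in Tg livers. Tg 5 was the highest and Tg 6 the lowest of all 6, and the difference, -0.38 ± 0.52 on the log2 scale (SE; limma adjusted p = 0.900), became 0.19 without Tg 6. Of the 2 genes with the repeat printed above, Cyp26a1 had groups that did not overlap and Rarb had groups that did. Of the 31 genes with such a repeat, 4 besides Cyp26a1 and Rarb were tested. They were the biliverdin reductase gene Blvrb (-0.18 ± 0.13, SE), the chemokine gene Ppbp (0.34 ± 0.60), the protease gene Prss27 (0.0012 ± 0.61) and Tnfsf13b, which encodes the B cell factor BAFF (1.07 ± 0.92), and the groups overlapped for each of the 4.

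**Figure D2:**
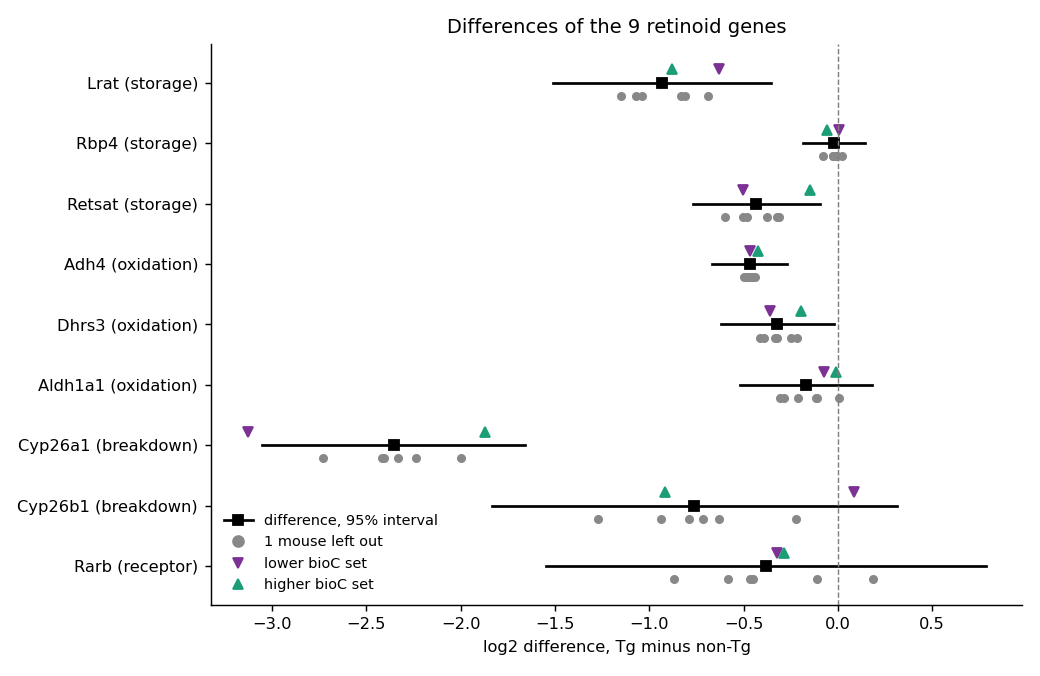
Log2 difference (Tg minus non-Tg) of the 9 genes with its 95% interval (squares and lines), with 1 mouse left out at a time (grey points) and within the lower and higher bioC sets (triangles). Over the points and triangles Cyp26a1 stays between -3.13 and -1.87 and Adh4 between -0.50 and -0.42, and the values of Rbp4, Aldh1a1, Cyp26b1 and Rarb reach both sides of 0.

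Differences were smaller among brighter genes on these arrays. From the 5th to the 95th percentile of all genes, log2 differences ran from -0.55 to 0.71. The same percentiles were -1.15 and 1.43 for the 1271 dimmest of the genes tested and -0.33 and 0.25 for the 1270 brightest. By the absolute size of its log2 difference Cyp26a1 was among the top 0.063% of genes, Lrat among the top 4.37% and Cyp26b1 among the top 7.04%. Adh4, with a smaller size, had a mean signal above 97.1% of probe sets and was one of those 1270 brightest genes.

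**Figure D3:**
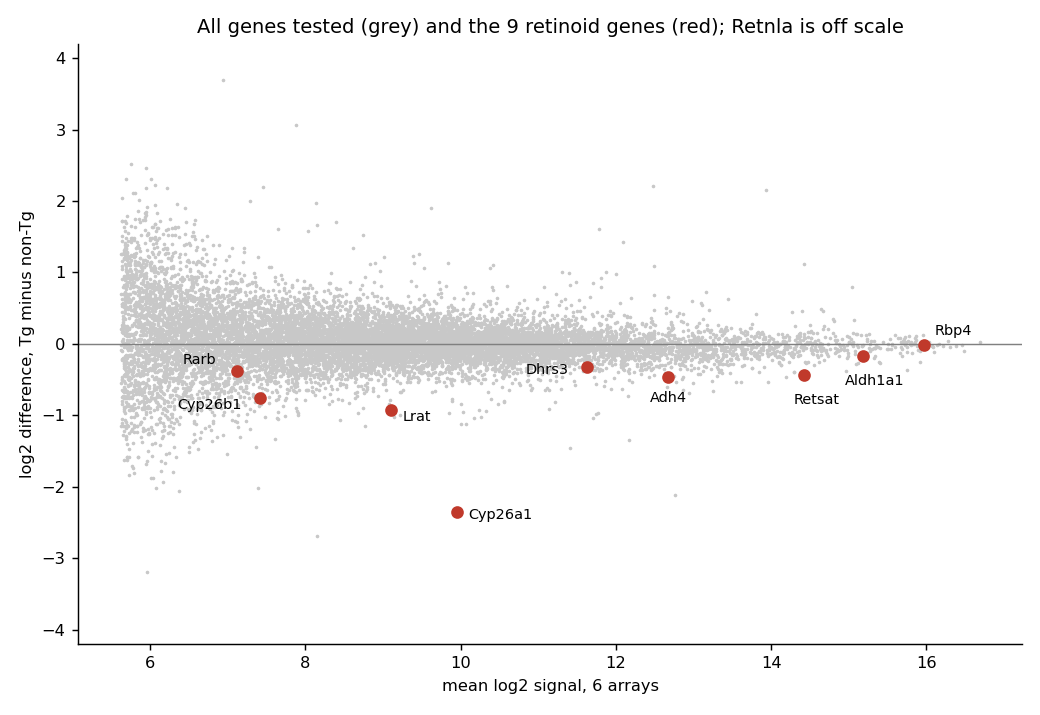
Log2 difference (Tg minus non-Tg) against mean log2 signal for all 12705 genes tested (grey; Retnla lies above the axis) with the 9 genes in red. Cyp26a1 stands at -2.35 below the grey band, and Rbp4 at the bright end lies on the line of no difference.

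The rest of the vitamin A path was read from 6 lists of 66 gene symbols outside the 9. Of these symbols, among which Bco1 and Bcmo1 name the same gene, 58 had a probe set with 1 symbol and 45 were bright enough to be tested. Of these 45, 25 were lower and 20 higher in Tg livers, with a median log2 difference of -0.071. None passed over all genes in limma (0 higher, 0 lower). At an unadjusted p under 0.05 in limma 2 were higher and 4 lower, beside 6.05% of all genes in either direction. The groups did not overlap in 5 of the 45, or 11.1%, beside 11.7% of all genes.

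Dehydrogenases and oxidases of retinol and retinal outside the 9 were mostly lower in the mean. Of 16 tested, 14 were lower and 2 higher in Tg livers, with a median log2 difference of -0.15, and 0 passed (0 higher and 3 lower at an unadjusted p under 0.05 in limma). Among all genes 47.9% were lower, 3.12% were lower at that unadjusted p and 5.64% were lower with no overlap, the last being so for 2 of these 16. Aox3, an aldehyde oxidase, was at 14.32, 14.60 and 14.35 in non-Tg and 14.12, 13.70 and 14.08 in Tg livers, with no overlap and -0.46 ± 0.13 as the log2 difference (SE; limma adjusted p = 0.735). Rdh16, a microsomal retinol dehydrogenase, was at 10.71, 10.49 and 11.11 in non-Tg and 9.61, 10.51 and 9.89 in Tg livers. Tg 6 reached into the non-Tg range there, and the log2 difference was -0.77 ± 0.24 (SE; limma adjusted p = 0.735). Adh1, the abundant liver alcohol dehydrogenase, differed by -0.18 ± 0.074 (SE) with no overlap. The 21 such genes with a probe set had summed linear signals of 186435 to 211856 in non-Tg and 167359 to 184944 in Tg livers. These sums do not overlap, but the highest Tg sum lies close to the lowest non-Tg sum, and the brightest genes weigh most in them. Several of these genes belong to clusters of near-identical copies, whose transcripts one probe set can share. The lean also depends on the probe set. Second probe sets above the filter went the other way for Rdh10 (0.28), Adh7 (0.18) and Adh5 (0.12). They went the same way for Dhrs4 (-0.21), Rdh14 (-0.091), Aldh8a1 (-0.071) and Rdh11 (0.015).

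Genes that carry retinoids, form or release the ester, or cleave carotenoids did not lean one way. Of the 3 carriers tested, Stra6l, a receptor for Rbp4 in liver, was at 11.29, 11.52 and 11.20 in non-Tg and 11.10, 11.06 and 11.03 in Tg livers. Its groups did not overlap, and the log2 difference was -0.27 ± 0.12 (SE; limma adjusted p = 0.807). Ttr, the partner of Rbp4 in plasma, differed by 0.0034 ± 0.082 (SE), and the fatty acid binding protein gene Fabp5 by 0.59 ± 0.43 (SE), and 0 of the 3 had an unadjusted p under 0.05 in limma. Of 9 ester and carotenoid genes, 6 were higher and 3 lower, with a median of 0.067, 0 passing and none without overlap, and 0 had an unadjusted p under 0.05 in limma. The carboxylesterase gene Ces1g differed by -0.28 ± 0.15 (SE), the carotenoid oxygenase gene Bco2 by 0.19 ± 0.15 and the lipase gene Pnpla2 by 0.17 ± 0.16.

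Receptors and their partners were near 0 in the median. Of 9 tested, 5 were higher and 4 lower, with a median log2 difference of 0.013, 0 passing and 0 with an unadjusted p under 0.05 in limma. Ppard differed by 0.59 ± 0.48 (SE), and the receptor genes Rxrg and Rarg by -0.41 ± 0.34 and -0.26 ± 0.25, and a second Rarg probe set, dimmer, gave 1.41. Cyp2c39, a retinoic acid hydroxylase outside the Cyp26 family, was dim and differed by 1.16 ± 0.78 (SE) with overlapping groups.

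Known retinoic acid targets outside the 9 went both ways. Of 7 tested, 4 were higher and 3 lower, with a median of 0.069 and 0 passing (2 higher and 1 lower at an unadjusted p under 0.05 in limma). Such a p was reached by 6.05% of all genes. Btg2, an antiproliferative gene that many stimuli induce, was at 8.70, 8.09 and 8.22 in non-Tg and 10.07, 9.12 and 9.24 in Tg livers. All 3 Tg livers were higher, and the log2 difference was 1.14 ± 0.28 (SE; limma adjusted p = 0.653). Rai14 differed by -0.54 ± 0.17 (SE) with no overlap, although its other probe sets gave 0.039, -0.67 and -0.24. Pck1, the gluconeogenic enzyme gene, differed by 0.49 ± 0.17 (SE) with overlapping groups, and its other probe sets gave 1.04 and, below the filter, 1.80. The median of this list changed sign with other settings, to -0.13 in a fit with the bioC set as a block and -0.11 without Tg 5.

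**Figure D4:**
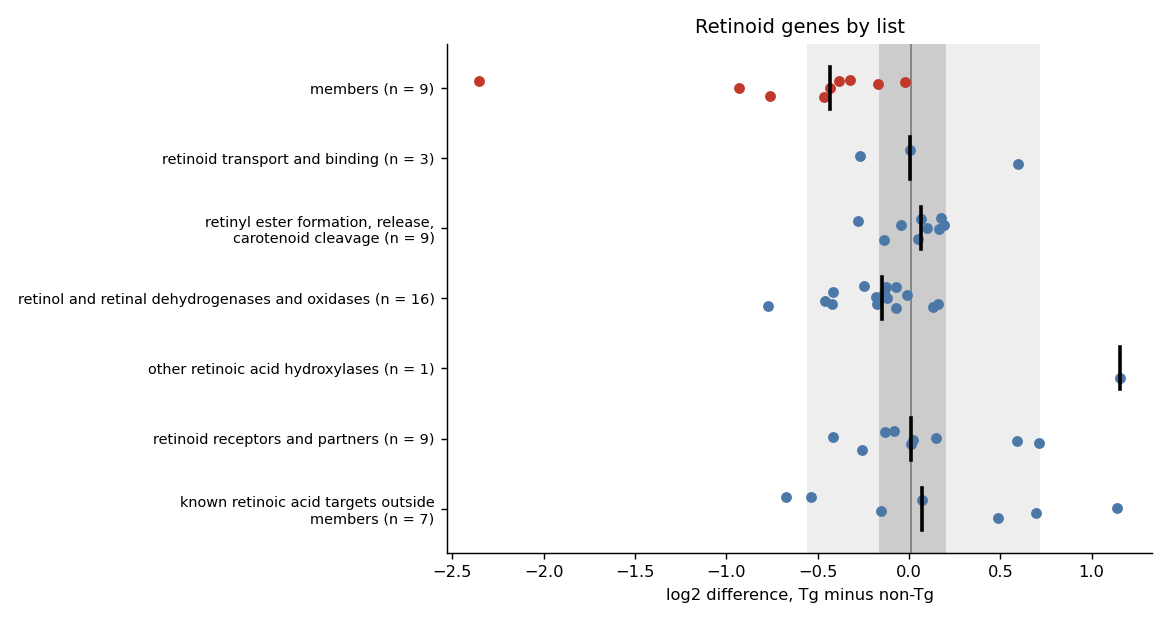
Log2 difference (Tg minus non-Tg) of each tested gene in the 9 (red) and in 6 lists of other vitamin A genes (blue), with black bars at the list medians. The dark band runs from the 25th to the 75th and the pale band from the 5th to the 95th percentile of all 12705 genes. The dehydrogenases and oxidases have a median of -0.15, and the medians of the carriers, ester genes, receptors and targets lie between 0.0034 and 0.069.

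Liver zones and other cell types were read beside these values, because Cyp26a1, Adh4 and the oxidation genes are hepatocyte genes. Of 12 general hepatocyte markers, 7 were higher and 5 lower in Tg livers, with a median log2 difference of 0.023 and 0 passing in limma. Tat differed by 1.12 ± 0.24 (SE) and Apob by -0.20 ± 0.082, and only these had an unadjusted p under 0.05 in limma or groups that did not overlap. Of 14 pericentral hepatocyte markers, 7 were higher and 7 lower in Tg livers, with a median log2 difference of -0.00070, and their summed signals overlapped, at 204346 to 215226 in non-Tg and 185664 to 212939 in Tg livers. Of them Tbx3 differed by -0.66 ± 0.26 (SE) and Slc1a2 by 0.46 ± 0.21. Of 12 periportal markers, 7 were higher and 5 lower, with a median of 0.10. With no overlap 2 were higher and 0 lower, beside 6.04% and 5.64% of all genes. The summed signals were 232669 to 258698 in non-Tg and 261217 to 272991 in Tg livers. These sums do not overlap, but the lowest Tg sum lies close to the highest non-Tg sum, and the brightest genes weigh most in them. Etnppl differed by 0.42 ± 0.10 (SE) and Asl by 0.45 ± 0.12. No marker of either zone passed in limma (0 higher and 1 lower of the pericentral, 5 higher and 0 lower of the periportal list at an unadjusted p under 0.05). Such a p was reached by 6.05% of all genes in either direction, 3.12% with Tg lower. The part of periportal markers in the differences of the 9 genes was not tested.

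Markers of other cells overlapped between the groups in summed signal for 5 of the 6 remaining lists. Of 13 Kupffer cell markers 12 were higher in Tg livers, with a median of 0.24, and Tg 6 stood apart with a summed signal of 61090, the other 5 livers lying between 23497 and 33897. With 1 mouse left out the Kupffer median ran from -0.18 without Tg 6 to 0.61 without Tg 7, and within the lower and higher bioC sets, the lower of which holds Tg 6, it was 0.53 and -0.44. Sinusoidal endothelial markers had a median of 0.091 over 15 genes, bile duct markers -0.47 over 5, lymphocyte markers 0.12 over 8 and neutrophil markers 0.10 over 5. Each of these medians turned sign with 1 mouse left out. The endothelial median ran from -0.015 without Tg 6 to 0.14 without Tg 7, and that of the bile duct list from -0.66 without Tg 7 to 0.059 without Tg 5. The lymphocyte median ran from -0.20 without Tg 5 to 0.45 without Tg 7, and the neutrophil median from -0.34 to 0.45 without the same mice. Erythroid markers had a median of 0.79 over 3 genes, and their summed signals, 3361 to 3923 in non-Tg and 4529 to 6468 in Tg livers, did not overlap. None of these lists had a member that passed in limma. At an unadjusted p under 0.05 in limma, 1 lymphocyte and 2 erythroid genes were higher and 0 genes of any of these lists lower. Over all genes 6.05% had such a p in either direction. Whether blood or macrophages in the tissue bear on the 9 genes was not tested. Without Tg 6 the log2 differences of Cyp26a1, Lrat and Adh4 were -2.41, -0.69 and -0.44.

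**Figure D5:**
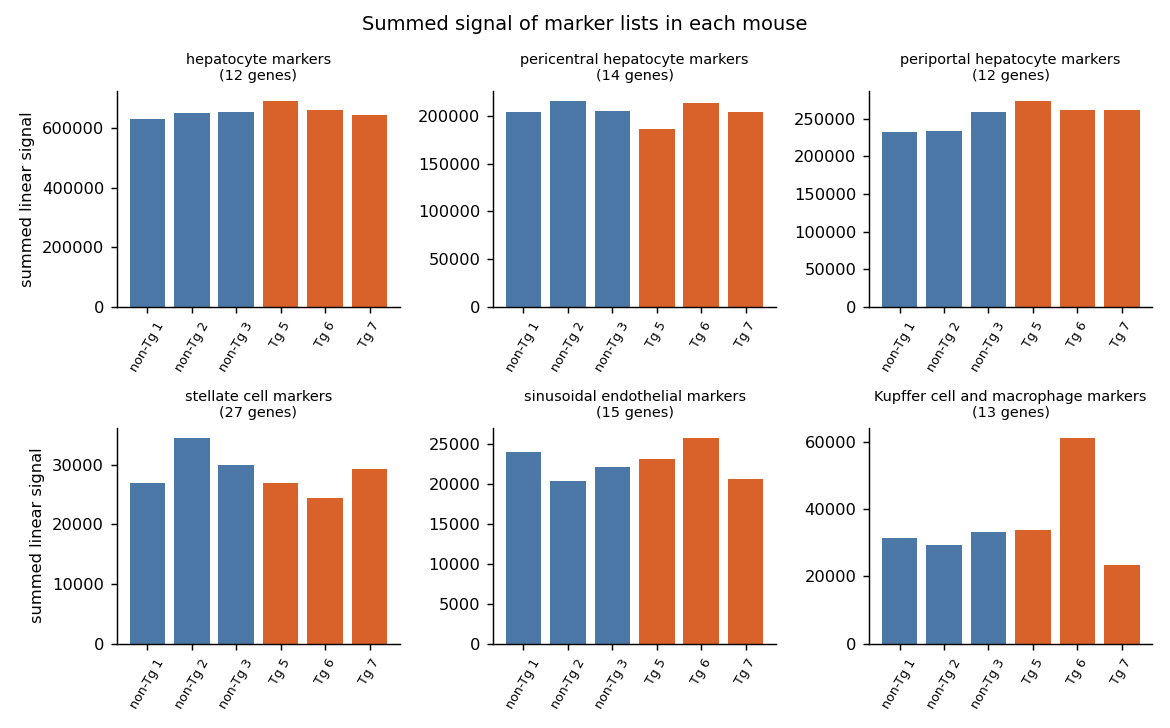
Summed linear signal of 6 marker lists in each mouse (blue non-Tg, orange Tg; 1 bar per mouse). The periportal sum is higher in each Tg liver than in any non-Tg liver. Kupffer cell markers stand out in Tg 6 at 61090, and the hepatocyte, pericentral, stellate and endothelial sums overlap between groups.

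Genes beside the 9 on their chromosomes were read as a local comparison. Of 18 nearest protein-coding neighbours in RefSeq, 12 were tested, with 5 higher and 7 lower, a median log2 difference of -0.036 and 0 passing in limma (1 at an unadjusted p under 0.05). Exoc6b, next to Cyp26b1 and named after its values were seen, was the only one without overlap, at -0.56 ± 0.38 (SE). That is 1 of 12, where 11.7% of all genes had no overlap. The 1 neighbour with an unadjusted p under 0.05 in limma, as had 6.05% of all genes, was Tnfrsf1b, next to Dhrs3. Tnfrsf1b was higher, at 0.46 ± 0.20 (SE), with overlapping groups. Fgg, next to Lrat, differed by -0.00047, and Tgoln1, next to Retsat, by 0.00021. Cyp26a1 and Rbp4 both lie on chromosome 19, and no neighbour of either had a value in the test.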

How the data were processed

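The authors deposited 1 table of log2 signals, with a row for each of 45101 probe sets and a column for each of 6 arrays. GCOS, software for Affymetrix arrays, is named in the submitters' processing notes; its version, how it summarised probes and the level it scaled to are stated in none of the sources used here. The antilogged signals have a mean of 500.0 on each array after 2% is trimmed at each end, so the arrays were scaled but not made equal in distribution, and detection calls were not used here. The 64 control probe sets were left out. Probe sets with 1 gene symbol and a mean above the 40th percentile (log2 signal 5.63) were kept, 22702 in all, and the one with the highest mean stood for each of 12705 genes. Tg and non-Tg were compared with limma 3.58.1 (R 4.3.3) (lmFit, then eBayes with trend, 2-sided, no covariates), and p-values were adjusted over all 12705 genes by the Benjamini-Hochberg method. SEs are moderated, with 9.61 degrees of freedom. The procedure was tested on simulated data. Lists are described by counts and medians, with no test of the list.

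The labels call each array an individual sample. The 9 genes and the lists were chosen with earlier results of these data known. Named are the 9 genes, the 3 genes of smallest limma p in each pathway list, at most 2 of each marker list (only counts and medians for markers of other cells than stellate cells and hepatocytes), listed genes next to the 9, and the 5 profiles nearest to Cyp26a1. Outside this rule are the genes that share the printed repeat, named for the repeat, and Gm10804, Exoc6b, Tnfrsf1b, Fgg, Tgoln1, Crabp1 and Stra6, named after their values were seen. Genes of a list without a probe set of 1 symbol were not analysed here. Promoter windows come from RefSeq, GRCm38.p6. Alternatives were other constants before the log, filters, normalizations and moderation, weighted arrays, probe sets averaged or picked by variance, the bioC sets as a block, and leaving out each mouse. Figures were drawn with matplotlib 3.10.9.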

Additional observations from a re-analysis of the deposited data

How the results depend on the processing

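The labels name no pairs of mice across the 2 groups, so no paired analysis was made. All genes past the threshold numbered 2 as fitted, 4 with 16 added before the log, with robust moderation, with the probe set of largest variance and with the bioC sets as a block, 5 with median centring, 6 with 64 added, and 2 to 3 with 1 mouse left out. With 1 mouse left out the groups did not overlap in 18.6% to 27.1% of genes, against 11.7% with all mice, since fewer mice overlap less often. Cyp26a1 passed with 64 added (-2.20; limma adjusted p = 0.0466), with median centring (-2.43; 0.0284), with the probe set of largest variance (-2.35; 0.0430) and without non-Tg 2 (-2.73; 0.0105). None of the other 8 genes passed under any alternative. Signs turned with 1 mouse left out for Rbp4 (-0.078 to 0.021), Aldh1a1 (-0.31 to 0.0071) and Rarb (-0.87 to 0.19), and within the lower bioC set for Rbp4 (0.0063) and Cyp26b1 (0.084). Rarb lay below the filter at the 60th percentile and has no value there. Median centring put the median of all genes at -0.063. With 3 mice a group, small differences of the dim genes Cyp26b1 and Rarb cannot be resolved, as their 95% intervals show.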

Other observations

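The 5 genes whose log2 profiles over the 6 arrays, each centred on its own mean, lay nearest to Cyp26a1 were Ccdc159 (root mean square difference 0.46), Camta1 (0.54), Efnb3 (0.55), the steroid and drug hydroxylase Cyp2b9 (0.58) and Cacng7 (0.63). They were picked for a profile like that of Cyp26a1, so lower values in Tg livers follow from the choice and are given as a description, with log2 differences of -2.01, -1.55, -1.67, -2.69 and -1.54. The limma adjusted p was 0.0610 for Cyp2b9 and 0.735 for each of the others. Ccdc159, Camta1 and Efnb3 were dim, with Tg means of 5.07, 5.44 and 5.36. These lie under the 5.63 required of the mean over all arrays, which they passed through their non-Tg values. Of the 9 genes, Lrat was next in nearness to Cyp26a1, at rank 201 of 12704 (root mean square difference 0.99), then Adh4 at 379 (1.05) and Retsat at 437 (1.06). Dhrs3 was at 1276, Aldh1a1 at 3185, Rbp4 at 4811 (1.25), Cyp26b1 at 7250 and Rarb at 9357 (1.38). This measure takes in the group difference, with which in view the genes were chosen, so nothing is read from their ranks.

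Crabp1 and Stra6, carriers of the vitamin A path, lay below the filter and were left untested among genes. Crabp1, which binds retinoic acid in the cell, was at 5.05, 5.29 and 5.73 in non-Tg and 1.57, 1.66 and 1.77 in Tg livers, lower in each Tg liver. Stra6, a membrane receptor for Rbp4, was at 3.45, 3.22 and 2.04 in non-Tg and 4.40, 4.51 and 5.39 in Tg livers, higher in each Tg liver. In limma over all probe sets their adjusted p was 0.807 and 0.886. Both were picked after their values were seen. Of 18000 probe sets at or below the filter, 10.2% had groups that did not overlap, and no detection call shows whether either signal is above background.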
